A study of Mus musculus with 15 samples.

Results

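The windows described here are stretches of 1 kb in which CpG methylation was higher in Dnmt3a knockout; Idh2 R140Q double mutant mouse progenitors than in every library of the wild type and of either single mutant. They were chosen by that measurement. Of 29251 autosomal windows of mouse build mm9 with at least 3 CpGs of 10 or more reads in all 15 libraries, 1372 (4.69%) were kept because the lowest of the 3 double mutant libraries lay at least 10 percentage points above the highest of the other 12. Reads of both strands were added, and the share of methylated ones among them is the level of a window. The distance between the lowest double mutant and the highest other library is called the margin. Since double mutant values chose the windows, their levels are given as a description and were not tested.

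The assay was reduced representation bisulfite sequencing, which reads CpG-rich restriction fragments after a chemical treatment that converts unmethylated cytosine. All cells were sorted fresh from the bone marrow of C57BL/6 mice, as megakaryocyte-erythroid progenitors (MEP, Lin-cKit+, Sca1-, CD34-, Cd16/32-) or as granulocyte-macrophage progenitors (GMP, the same gate but CD34+, Cd16/32+). The wild type of the labels carried Mx1-cre+;Dnmt3af/f, the knockout Mx1-cre+;Dnmt3a-/-, and the Idh2 mutant Mx1-cre-;Dnmt3af/f;Idh2 R140Q, so that it alone lacked the Cre. Each of these had 2 MEP and 2 GMP libraries. The double mutant, Mx1-cre+;Dnmt3a-/-;Idh2 R140Q, had 3 libraries of malignant progenitors in the MEP gate and none of GMP, so that the joint genotype and the malignant state cannot be told apart. Mx1-cre is an interferon-inducible recombinase active in blood cells and in other tissues. The labels speak of biological replicates without naming separate animals, and p-values may therefore measure only the spread between samples. In the Idh2 mutant the Idh2 allele and the absence of Cre cannot be told apart.

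Methyl groups on CpGs are placed anew by Dnmt3a and Dnmt3b and copied after replication by Dnmt1, and Tet enzymes oxidise them as a step of their removal. Idh2 R140Q makes 2-hydroxyglutarate, a metabolite that inhibits Tet enzymes. CpG islands, dense runs of CpGs at many promoters, are mostly unmethylated in normal blood cells. Islands of developmental regulators, which Polycomb complexes keep silent in blood, are known as frequent places of gained methylation in leukaemia.

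The measured parts of 6 such windows are shown to give the kind of sequence in which the gain lay, an upstream promoter sequence, coding exons and a site upstream of a gene. Each is the plus strand of mm9, written 5′ to 3′, with the CpGs measured in all 15 libraries in capitals. No annotated untranslated sequence is included.
Sept10 (chr10:58685093-58685140): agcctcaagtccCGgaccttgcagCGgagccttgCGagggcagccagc
Pcdh10 (chr3:45184950-45184999): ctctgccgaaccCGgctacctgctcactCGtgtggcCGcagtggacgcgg
Pax3 (chr1:78199651-78199793): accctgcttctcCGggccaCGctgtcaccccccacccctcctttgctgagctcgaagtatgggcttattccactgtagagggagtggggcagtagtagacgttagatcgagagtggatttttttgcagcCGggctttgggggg
Hoxd11 (chr2:74519707-74519831): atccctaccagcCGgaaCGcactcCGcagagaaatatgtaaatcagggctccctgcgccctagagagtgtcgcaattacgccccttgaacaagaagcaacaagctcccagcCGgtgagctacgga
Itga2b (chr11:102317231-102317398): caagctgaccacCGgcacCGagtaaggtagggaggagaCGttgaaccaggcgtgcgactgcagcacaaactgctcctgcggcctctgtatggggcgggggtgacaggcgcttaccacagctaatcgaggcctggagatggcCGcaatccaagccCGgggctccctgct
Irx2 (chr13:72766533-72766585): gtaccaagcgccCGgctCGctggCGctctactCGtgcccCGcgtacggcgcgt

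The first measured CpG of each follows a C and precedes a G, as at the ccgg ends of the restriction fragments. At the 3 CpGs of the Sept10 sequence, counted from the 5′ end, double mutant means were 92.7, 92.2 and 95.4%. The highest of the other 12 libraries had 11.8, 16.1 and 27.3% there. The 5 CpGs of the Irx2 sequence were less even, with double mutant means of 68.6, 61.0, 39.99, 61.0 and 64.96%. The third of them is 1 of the CpGs where single libraries came close, since 31.6% was reached outside the double mutant. The 5 CpGs of the Itga2b sequence held 80.2, 82.5, 59.7, 89.99 and 58.7% in the double mutant, and no other library passed 15.8% at any of them.

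Library sizes were 28001420 to 31657332 reads over cytosines in the double mutant, 30751438 to 35204906 in wild type, 20541812 to 26086791 in knockout and 19306705 to 24587340 in Idh2 mutant libraries. A gained window held a median of 228 to 254 reads in double mutant libraries and of 183 to 362 in the others. Methylated reads on the mitochondrial genome, a rough measure of unconverted cytosine, made up 0.912 to 1.56% in the double mutant and 0.280 to 3.27% elsewhere, so the double mutant lay inside the range of the others. Reads on the Y chromosome were 0.00540 to 0.00575% of autosomal reads in wild type and 0.0199 to 0.0386% in all other libraries. Every difference from wild type thus goes along with sex chromosome content, whose part in the results was not tested. Of 17 marker genes of GMP, MEP and lymphoid cells 8 had measured windows, 27 in all, and 3 of these were gained, 1 each at Itga2b, Ank1 and Pax5. The GMP markers Prtn3 and Csf3r had 3 windows, none of them gained.

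Median levels over the 1372 windows were 36.8, 42.2 and 37.0% in the 3 double mutant libraries. In the other 12 the median ran from 3.68% in knockout MEP replicate 1 to 6.21% in Idh2 mutant GMP replicate 2. Means over the windows were 43.0% ± 2.48 (SD, n = 3) in the double mutant, 9.66% ± 0.0526 in wild type MEP, 8.74% ± 1.02 in knockout MEP and 10.1% ± 0.430 in Idh2 mutant MEP (n = 2 each). For GMP the means were 9.96% ± 0.306 (wild type), 9.20% ± 0.997 (knockout) and 11.0% ± 1.12 (Idh2 mutant), again from 2 libraries each. The 6 groups of wild type and single mutants thus lay within a few points of each other at these windows.

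**Figure D1:**
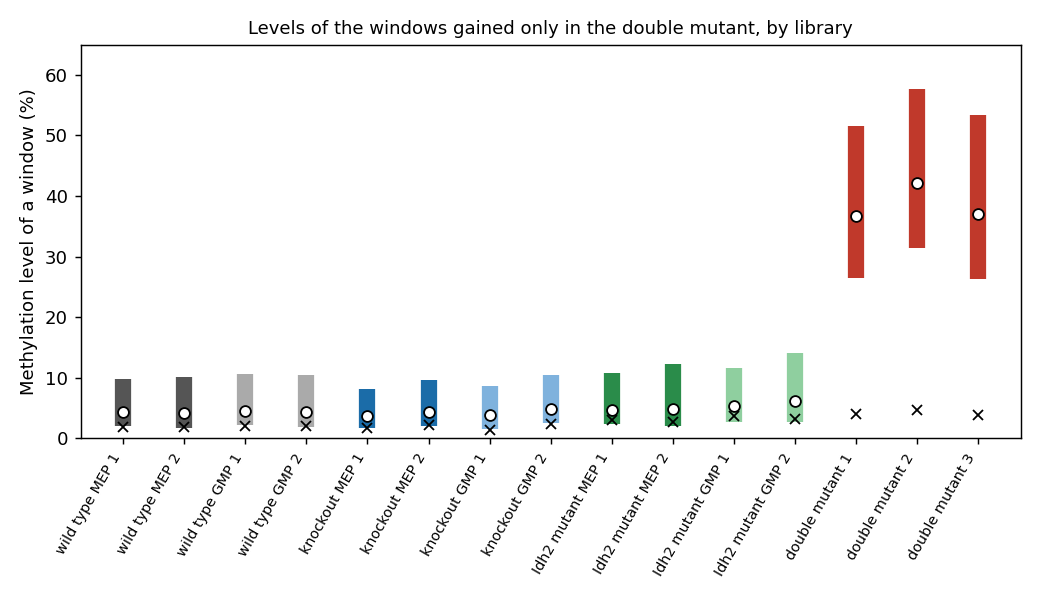
Methylation level (%) of the 1372 gained windows in each of the 15 libraries, with bars from the lower to the upper quartile, white points for the median and crosses for the mean of windows below 20% in wild type MEP that are not among the gained ones. Medians are 36.8 to 42.2% in the double mutant and 3.68 to 6.21% elsewhere. The crosses lie between 3.85 and 4.70% in the double mutant and between 1.40 and 3.61% elsewhere.

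The double mutant mean exceeded that of wild type MEP by a median of 31.2 points (12.6 to 87.9), and the margin had a median of 18.4 points (10.02 to 74.8). In 80 windows the margin was 40 points or more, and in 435 it was under 15. Intermediate levels prevailed: 777 windows (56.6%) had a double mutant mean between 25 and 50%, 394 reached 50% or more and 106 reached 75%. All 3 double mutant libraries stood above 80% in 69 windows. Replicate 2 was the highest of the 3 in 750 windows, replicate 3 in 352 and replicate 1 in 270. The range over the 3 libraries had a median of 10.3 points, and across windows their levels had Pearson correlations of 0.867 to 0.892 (1372 windows of the same libraries, a description). The rule turned around, with the highest double mutant library at least 10 points below the lowest of the 12, was met by 116 windows.

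Most of the windows started low. All 12 other libraries were below 20% in 1055 of them (76.9%), below 10% in 697 and below 5% in 287. By level in wild type MEP, 763 came from windows under 5%, of which 5.81% were gained. From 5 to 20% came 422, and in that class 20.1% of windows were gained. A further 137 started between 20 and 50% (9.45% of such windows) and 50 between 50 and 80% (1.78%), where double mutant levels had a median of 91.7%. Those higher classes leave less room for a margin of 10 points, and none of the 9751 windows above 80% was gained.

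By place, 900 of the 1372 windows (65.6%) lay within 1 kb of an annotated start site, against 47.8% of all 29251. Of these 900, 804 (89.3%) were within 1 kb of the start of a protein-coding transcript, close to the 90.6% of all windows at start sites. Intergenic windows numbered 239, intronic 116, those in coding exons 100, in non-coding exons 10 and in untranslated exons 7. The higher share at start sites goes along with the low levels there. Among the 15240 windows below 20% in wild type MEP, of which 7.78% were gained, the share was 6.73% at start sites, 15.2% in coding exons, 11.8% in introns and 10.9% between genes. Within promoters, windows centred 500 to 1500 bp downstream of the start site were gained in 9.81% of cases and those in the first 500 bp in 5.69%. At low levels, then, gained windows took a larger share away from start sites than at them.

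Gained windows were CpG-rich, with a median of 54 CpGs in the genome sequence of the window against 31 in all windows and a GC content of 58.8 against 53.5%. Among windows below 20% in wild type MEP the medians were 55 CpGs for gained windows and 55 for the rest. The median ratio of observed to expected CpGs was 0.651 for gained and 0.678 for the rest of these low windows. CpG density thus separated gained windows from all windows but hardly from other lowly methylated ones.

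Of the gained windows 453 (33.0%) lay within 5 kb of another gained one. How often measured windows in general lie that close was not counted. When windows at most 5 kb apart were joined, the 1372 fell into 1125 stretches, of which 919 held 1 window, 170 held 2 and 36 held 3 or more. The longest, 5 gained windows, lay at Pitx1, a homeobox factor of the hind limb and pituitary (chromosome 13, 55927001 to 55939000). Over its 50 CpGs the double mutant libraries had 34.98, 40.3 and 33.6%, wild type MEP 3.74 and 6.98%, knockout MEP 5.56 and 7.24%, and Idh2 mutant MEP 8.34 and 9.24%. The 4 gained windows at Fezf1, a forebrain zinc finger factor (chromosome 6, 23195001 to 23200000), had 50.3, 59.7 and 46.4% in the double mutant over 25 CpGs, and wild type MEP 3.29 and 9.61%. Stretches of 4 were also found at Msx1, a homeobox factor of craniofacial buds, and at Nr2f2, an orphan nuclear receptor. In each of these stretches the double mutant libraries lay well apart from all others.

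Windows near a gained one, though not gained themselves, were also higher in the double mutant. Among those below 20% in wild type MEP, 254 windows lay 1 kb away, and their median levels were 13.4, 18.3 and 12.03% in the double mutant libraries and at most 4.42% in any other library. At 5 kb (37 windows) the medians were 7.41, 11.5 and 6.29% and at most 2.91%. At 100 kb or more (12229 windows) they were 0.403, 0.389 and 0.467% in the double mutant and at most 1.37% elsewhere. The difference of the double mutant from the rest thus declined with distance. Distant windows also started lower, with a median in wild type MEP of 0.288% at 100 kb or more, against 2.50% at 1 kb and 2.27% at 5 kb. Distance and starting level were not separated. Windows that met the rule are left out of this set by construction.

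**Figure D2:**
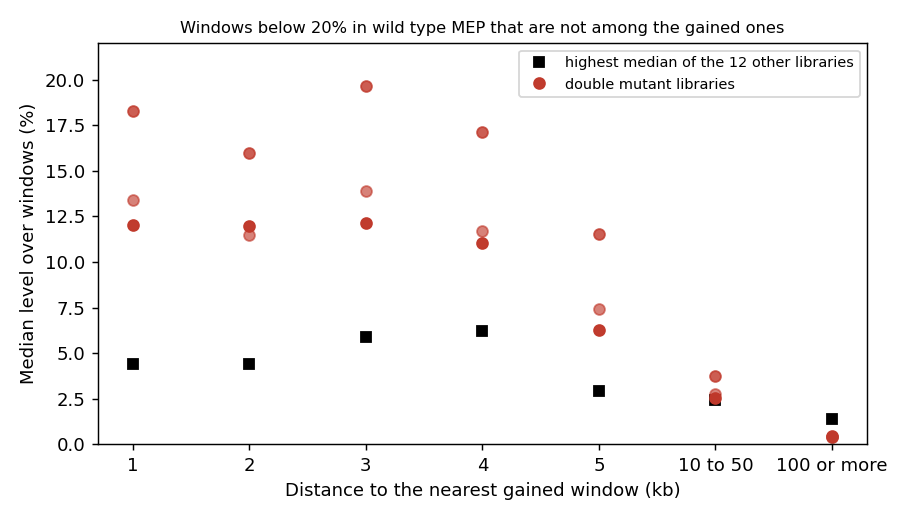
Median methylation level (%) of windows below 20% in wild type MEP that are not gained, against their distance in kb to the nearest gained window, with red points for the 3 double mutant libraries and black squares for the highest of the other 12. At 1 kb the double mutant medians are 12.03 to 18.3% above a square at 4.42%, and at 100 kb or more they lie below the square at 1.37%.

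The largest margin belonged to the promoter of Sept10, a septin of the cytoskeleton (chromosome 10, 58685001 to 58686000, 3 CpGs, centred 521 bp upstream of the start). The double mutant libraries had 89.6, 94.7 and 95.8%. The others had 8.06 and 2.98% in wild type MEP, 6.01 and 0.543% in wild type GMP, 3.80 and 5.83% in knockout MEP and 8.11 and 1.23% in knockout GMP. The remaining libraries had 12 and 12.4% in Idh2 mutant MEP and 3.17 and 14.8% in Idh2 mutant GMP, and all 12 stayed under 15% while the double mutant lay near full methylation.

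A coding exon of Pcdh10, a protocadherin of neuronal adhesion (chromosome 3, 45184001 to 45185000, 3 CpGs), had 82.2, 83.3 and 88.1% in the double mutant. The others held 1.49 and 2.22% in wild type MEP, 5.49 and 3.88% in wild type GMP, 7.84 and 7.89% in knockout MEP and 4.04 and 3.11% in knockout GMP. The remaining libraries had 4.76 and 1.18% in Idh2 mutant MEP and 1.32 and 4.44% in Idh2 mutant GMP. No library outside the double mutant reached 8%, at a median depth of 129 reads per library.

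A window 6013 bp upstream of Pax3, a factor of neural crest and muscle (chromosome 1, 78199001 to 78200000), held 83.5, 71.1 and 87.2% in the double mutant. The others held 7.64 and 0.889% in wild type MEP, 2.76 and 2.14% in wild type GMP, 5.38 and 3.51% in knockout MEP and 4.62 and 4.17% in knockout GMP. The remaining libraries had 2.68 and 5.56% in Idh2 mutant MEP and 3.08 and 5.45% in Idh2 mutant GMP. All 8 single mutant libraries lay within the range of wild type here.

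The promoter of Hoxd11, a limb and axial patterning gene (chromosome 2, 74519001 to 74520000, 4 CpGs), held 80, 83.6 and 90.8% in the double mutant. The others held 16.1 and 4.88% in wild type MEP, 3.85 and 3.11% in wild type GMP, 9.83 and 14.6% in knockout MEP and 3.94 and 6.11% in knockout GMP. The remaining libraries had 16.8 and 17.5% in Idh2 mutant MEP and 17 and 6.29% in Idh2 mutant GMP. Wild type MEP alone spanned a wide range, and the Idh2 mutant libraries overlapped with it in part.

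The 20 windows of largest margin, at most 1 per 10 kb, had margins from 49.3 to 74.8 points. Of them 12 lay at start sites, 5 between genes, 2 in coding exons and 1 in an intron. In 18 of the 20 all 12 other libraries were below 20%. Several belonged to genes of neurons: the promoters of Gabra5, a subunit of the GABA-A receptor, of Nptx2, a pentraxin of synapses, of Sorcs1, a sorting receptor, and of Dab1, an adaptor of reelin signalling. Gabra5 held 90.3, 95.5 and 92.5% in the double mutant and from 8.47 to 30.5% elsewhere, where wild type MEP replicate 2 was the highest. Nptx2 held 77.7, 81.2 and 80.2% and elsewhere from 3.25 to 18.3%. In both promoters the double mutant and the other libraries were far apart.

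Others of the 20 were an intron of Olfm2, which encodes an olfactomedin, a coding exon of Adamts9, a matrix protease, and the promoter of Rgs6, a regulator of G protein signalling. The Olfm2 window held 84.3, 87.8 and 82.9% and elsewhere from 1.036 to 13.3%. The Adamts9 exon held 63.8, 73.4 and 63.7%, with no other library above 4.69%. A window 18.6 kb upstream of Cacng4, an auxiliary subunit of ion channels, reached 93.7, 96.3 and 100% and elsewhere ran from 11.9 to 26.3%. A window 10.3 kb upstream of Pax9, a factor of pharyngeal pouches and teeth, held 66.9, 77.6 and 69.5% and elsewhere from 2.97 to 11.02%. With 25 CpGs, the Egfem1 promoter was the most broadly measured of the 20, at 62.1, 62.3 and 68.97% and elsewhere from 3.37 to 9.65%.

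**Figure D3:**
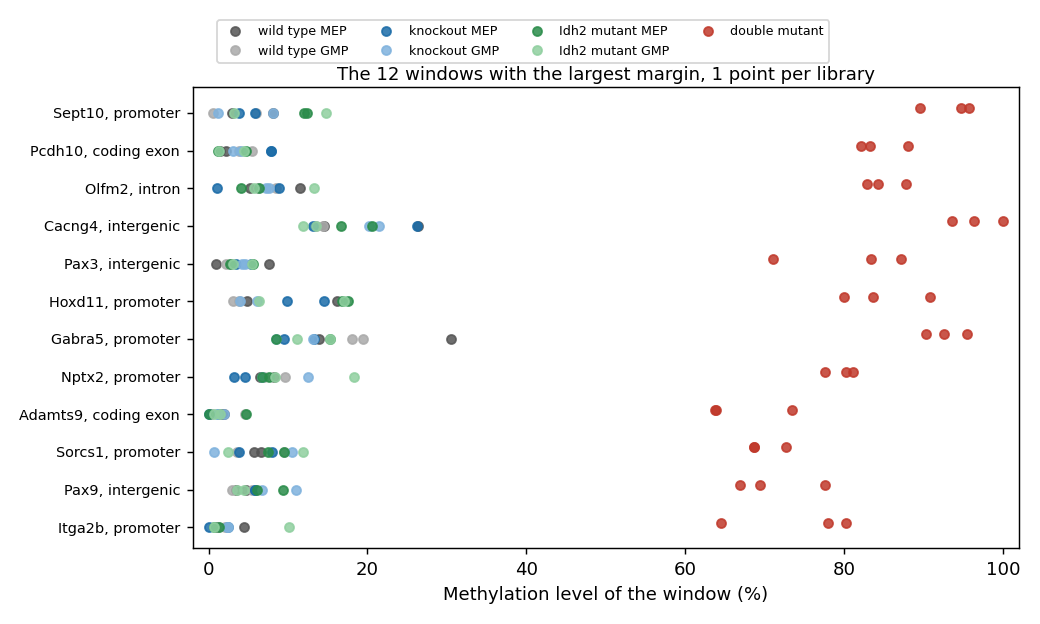
Methylation level (%) of the 12 windows with the largest margin, named by gene and place, with 1 point per library coloured by group. The red points of the double mutant lie between 63.7 and 100%, and no point of another library is above 30.5%.

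The windows were assigned to 1035 of the 13752 genes that had measured windows. Of these, 240 had 2 or more gained windows, and 745 genes had one at a start site. A gene with more measured windows has more chances to hold a gained one, which the counts of genes below do not allow for. A window between genes was assigned to the protein-coding gene with the nearest start site, however distant. Nr2f2 had 7 gained windows of 13 measured, Pax2, a factor of kidney and midbrain, 6 of 22, and Otx2, a head patterning homeobox factor, 5 of 7. Genes were read against 14 lists by function, and 376 gained windows (27.4%) belonged to a listed gene, against 9.48% of all windows. These shares are counts of windows that share libraries and neighbourhoods, set beside the 4.69% of all windows that were gained and the 7.78% of low ones, and were not tested.

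Of windows at homeobox transcription factor genes, 108 of 550 (19.6%) were gained, in 59 of 134 measured genes. The other developmental transcription factors had 105 of 536 (19.6%), in 57 of 114 genes. The levels of the homeobox windows had a median of 4.43% in wild type MEP, 4.14% in knockout MEP, 5.80% in Idh2 mutant MEP and 34.95% in the double mutant. At the start of Irx2, an Iroquois homeobox factor (chromosome 13, 72766001 to 72767000, 9 CpGs), the double mutant had 54.9, 68.1 and 49.3%. The others had from 0.763 to 8.02%, the highest in Idh2 mutant GMP replicate 1. All 6 Iroquois genes with measured windows had a gained one, in 13 of 33 windows. Paired box genes had 19 of 60 windows gained, in 6 of 7 genes, and Nkx homeobox genes 13 of 54, in 8 of 14.

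The 4 Hox clusters, which pattern the body axis and of which HoxA and HoxB genes are also active in early blood progenitors, differed in counts. HoxD had 10 of 26 windows gained (Hoxd1, Hoxd3, Hoxd9, Hoxd10 and Hoxd11), HoxB 3 of 21, HoxA 2 of 29 and HoxC 1 of 20. Hoxd3 held 64.3, 63.2 and 63.2% in the double mutant and from 5.56 to 24.5% elsewhere. The HoxD windows also started higher, at a median of 8.23% in wild type MEP against 0.981% in HoxA. The Hoxa7 promoter (chromosome 6, 52167001 to 52168000, 4 CpGs) held 19.3, 17.9 and 44.4%, with replicate 3 far above the other double mutant libraries, and at most 1.33% in any other library. Hox clusters and gene families were counted after their values were seen.

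Factors outside the homeobox list included Pax1, of the spinal column, and Nr2f2. The Pax1 promoter held 67.9, 86.5 and 66.7% in the double mutant and from 0 to 23.4% elsewhere. A window 3064 bp upstream of Nr2f2 held 59.9, 69.9 and 60% and elsewhere from 2.60 to 15.6%. Both Idh2 mutant MEP libraries of Pax1 lay above the 4 wild type libraries, though far below the double mutant.

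Lists of neuronal genes were also above the share of all windows. Of windows at genes of axon guidance and neuronal adhesion 44 of 313 (14.1%) were gained, and of those at ion channel and transmitter receptor genes 37 of 372 (9.95%). The promoter of Cdh4, a cadherin of the retina and brain, measured over 22 CpGs, held 47.6, 59.4 and 59.9% and elsewhere from 1.53 to 3.06%. Epha6, an ephrin receptor, held 59.6, 63.01 and 64.7% and elsewhere from 3.57 to 16.1%. Sema6d, a semaphorin, held 51.04, 53.5 and 53.7% and elsewhere from 2.87 to 9.09%. In these 3 promoters the double mutant libraries lay apart from all others. Kcna1, a voltage-gated potassium channel, held 52.6, 52.3 and 58.9% and elsewhere from 0.602 to 9.09%. A window 7604 bp upstream of Chrna4, a nicotinic receptor subunit, started at intermediate levels, from 23.4 to 53.03%, and reached 92.05, 92.6 and 92.4% in the double mutant.

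Among genes of Wnt, Hedgehog, Bmp and Notch signalling 28 of 276 windows (10.1%) were gained, and among tumour suppressor genes 15 of 193 (7.77%). Sfrp1, a secreted Wnt inhibitor that is on both lists, had 2 adjoining promoter windows. The one of larger margin (chromosome 8, 24522001 to 24523000) held 62.5, 57.7 and 53.9% in the double mutant and from 0 to 9.13% elsewhere, knockout MEP replicate 1 being the highest. Its neighbour held 43.2, 62.3 and 58.3%, with at most 5.98% elsewhere. Receptors of these pathways were present with Fzd10, a Wnt receptor (44.3, 51.7 and 42.9%, elsewhere from 1.46 to 6.11%), and Bmpr1b, a Bmp receptor (47.2, 52.4 and 39.01%, elsewhere from 2.16 to 8.35%). The promoter of Id4, an inhibitor of helix-loop-helix factors, held 51.5, 58.4 and 47.4% and elsewhere from 0 to 7.87%. The Wt1 promoter started higher, from 4.603 to 24.7%, and had 58.4, 81.4 and 67.3% in the double mutant. At Wt1 the 4 Idh2 mutant libraries, 21.6 to 24.7%, all lay above the 4 knockout libraries, 4.603 to 13.9%.

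Lists of blood genes held small numbers of gained windows. Erythroid and megakaryocyte genes had 2 of 44 (4.55%), stem and early progenitor genes 9 of 145 (6.21%), granulocyte and macrophage genes 6 of 49 (12.2%) and lymphoid genes 6 of 55 (10.9%). The granulocyte and macrophage windows were at Csf2ra and, for 5 of the 6, at Fcgr3. That Fc receptor has a family of 6 near-identical windows, 4 of them gained. Of the 5 windows assigned to Fcgr3, 2 lay at start sites. The 3 of largest margin lay between genes, 8339, 15449 and 16402 bp upstream of its start. The shares of this list thus rest largely on 1 locus. Among windows below 20% in wild type MEP the shares were 8.70% (2 of 23), 10.5% (9 of 86), 16.1% (5 of 31) and 23.1% (6 of 26) in the same order, against 7.78% of all such windows. The 2 erythroid and megakaryocyte windows were at Itga2b, the platelet integrin CD41, and Ank1, the red cell ankyrin. The Itga2b window (chromosome 11, 102317001 to 102318000) lay at the start of a short non-coding transcript, 13.9 kb inside the gene from its protein-coding start. It held 78.02, 80.3 and 64.5% in the double mutant. The others held 1.12 and 4.50% in wild type MEP, 2.01 and 1.22% in wild type GMP, 2.45 and 0% in knockout MEP and 2.37 and 2.41% in knockout GMP. The remaining libraries had 0.741 and 1.29% in Idh2 mutant MEP and 10.1 and 0.730% in Idh2 mutant GMP, so Idh2 mutant GMP replicate 1 was the highest of the 12.

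Other windows of Itga2b did not follow. At its protein-coding start (chromosome 11, 102331001 to 102332000) the mean was 18.5% in wild type MEP and 19.9% in the double mutant, with 4.77% in knockout MEP and 5.96% in Idh2 mutant MEP. An intron window (chromosome 11, 102329001 to 102330000) held 81.5% in wild type MEP, 88.2% in knockout MEP, 92.4% in Idh2 mutant MEP and 9.99% in the double mutant. Within 1 gene the double mutant was thus higher in one window and lower in another. At Ank1 (chromosome 8, 24085001 to 24086000) a window 160 bp upstream of a start site held 52.6, 49.3 and 54.8% in the double mutant and from 3.33 to 17.3% elsewhere, with knockout GMP replicate 1 the highest.

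Among stem and early progenitor genes, an intron window of Mecom, a zinc finger factor needed by stem cells, held 28.1, 44.8 and 45.2% in the double mutant and from 0 to 3.47% elsewhere. The promoter of Fgd5, a stem cell marker, held 22.5, 27.1 and 26.3% and elsewhere from 0.234 to 8.20%. A coding exon of Csf2ra, a subunit of the GM-CSF receptor, held 88.2, 92.6 and 85.5% and elsewhere from 1.92 to 40%. At Csf2ra the 4 knockout libraries had 1.92 to 14.8%, below the 4 wild type libraries, 16.2 to 32.6%. Lymphoid genes with gained windows were Bcl11b, a T cell factor, Lef1, a Wnt effector of early lymphocytes, and Pax5, the B cell factor. The windows of Lef1 and Pax5 lay between genes, 164161 and 2837 bp upstream of the start. The Bcl11b promoter held 33.7, 46.6 and 43.4% and elsewhere from 0 to 12%.

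Imprinted genes, expressed from 1 parental allele, had 8 of 83 windows gained (9.64%). The Grb10 promoter, over 26 CpGs, held 48.96, 57.6 and 40.1% in the double mutant and from 3.33 to 7.37% elsewhere. Zdbf2 held 56.7, 65.99 and 68.9% and elsewhere from 3.81 to 18.4%. Gnas, at a window with intermediate levels elsewhere (from 17.5 to 55.6%), had 80.4, 86.05 and 83.9%. Germline genes had 4 of 39 gained, all at Sox30 and Tdrd6, which act in spermatids. Extracellular matrix genes had 16 of 231 (6.93%). Among the 43 windows at genes of the DNA methylation machinery, Dnmt, Tet and Idh genes included, none was gained. For ribosomal protein genes only windows at start sites were counted, unlike for the lists above, and 1 of 74 was gained, at Rpl26.

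**Figure D4:**
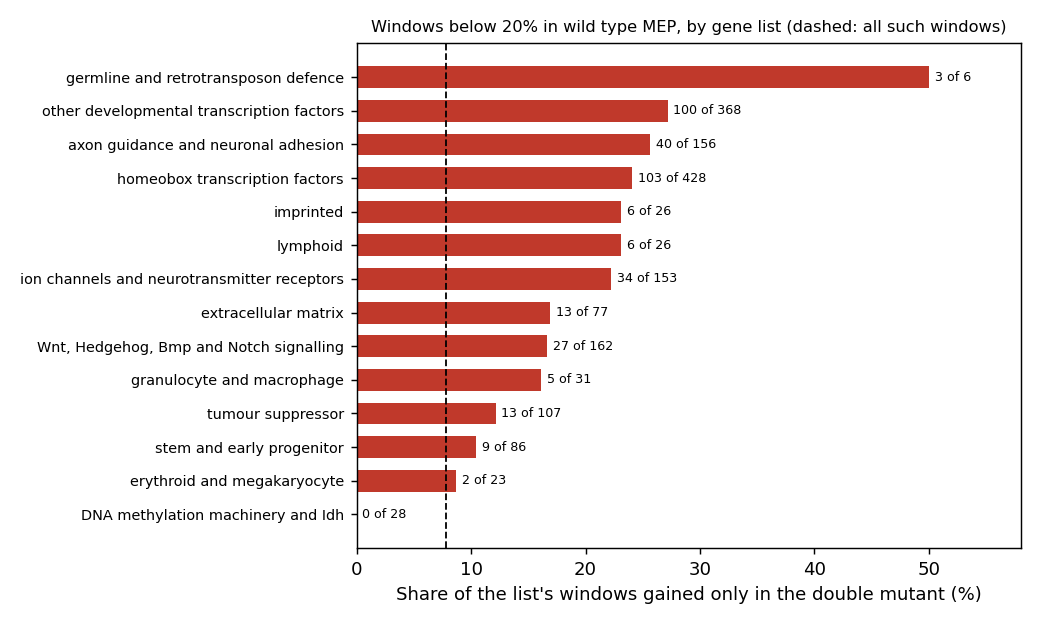
Share (%) of windows below 20% in wild type MEP that were gained in the double mutant, for each of 14 gene lists, with gained and measured windows written beside each bar and a dashed line at the 7.78% of all such windows. Developmental transcription factors reach 27.2%, axon guidance genes 25.6% and homeobox genes 24.1%, while the bar of 50% rests on 3 of 6 windows.

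Single mutant levels at the gained windows were close to wild type. The knockout minus wild type difference in MEP had a median of −0.25 points and the Idh2 mutant difference a median of 0.39. In GMP the medians were −0.23 and 0.99 points. The sum of both single differences in MEP had a median of 0.49 points, and the double mutant exceeded that sum by a median of 31.1 points. This excess comes from the values that chose the windows, so it is largely set by the rule and was not tested. In 14 windows (1.02%) knockout MEP lay 10 or more points above wild type MEP, against 4.15% of all windows, and in 47 (3.43%) Idh2 mutant MEP did, against 6.59%. The rule itself keeps out windows where a single mutant library came within 10 points of the double mutant. Idh2 mutant MEP exceeded knockout MEP in 879 windows (64.1%), against 44.2% of all windows, and an Idh2 mutant GMP library was the highest of the 12 in 287 (replicate 2) and 198 (replicate 1). Windows below 20% in wild type MEP that were not gained went the same way. Their means were 3.06 and 2.73% in Idh2 mutant MEP and 1.73 and 2.19% in knockout MEP libraries.

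**Figure D5:**
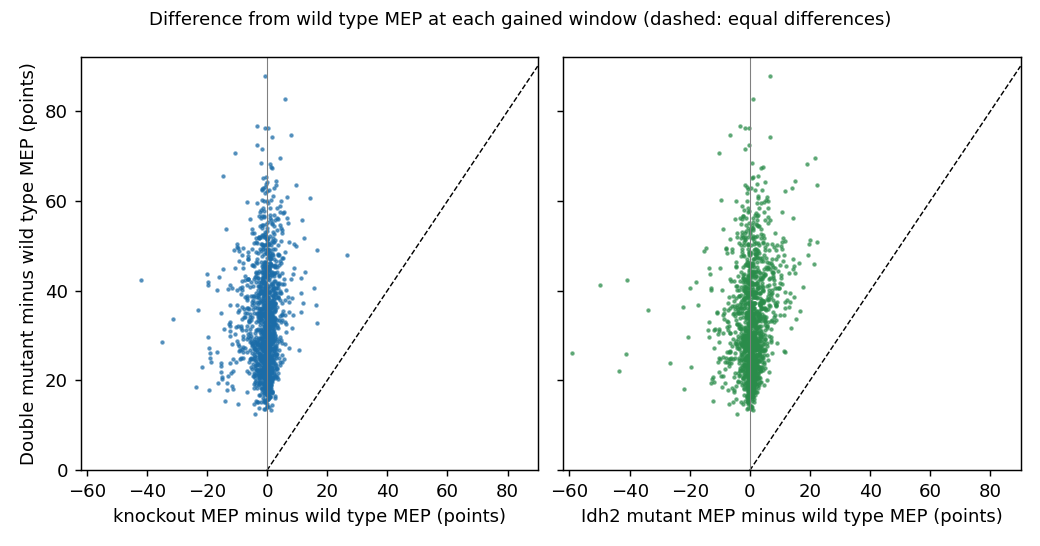
Difference from wild type MEP in percentage points at each of the 1372 gained windows, double mutant (vertical) against knockout MEP (left, horizontal) and Idh2 mutant MEP (right, horizontal), with 1 point per window and a dashed line of equal differences. Points gather around 0 on both horizontal axes, with medians of −0.25 and 0.39. All lie above the dashed line, which the rule that chose the windows requires.

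Differences among the 12 libraries of wild type and single mutants did not enter the choice directly, since the rule treats these libraries alike. It does limit them, because a window where a single mutant rose was kept only if the double mutant was higher still. They were tested over all 29251 windows with a quasi-binomial logistic model without the double mutant, GMP and MEP together. A window was called at a Benjamini-Hochberg adjusted p under 0.05 and a difference of at least 10 points. Of all windows 0.687% were called between knockout and wild type, 0.284% higher and 0.403% lower in the knockout. Of the 1372 gained windows 0 were called higher and 2 lower (0.146% in either direction), and limma called 0. Among windows below 20% in wild type MEP, gained ones included, 0.0525% were called. An unadjusted p under 0.05 was found at 174 gained windows (12.7%) and at 4299 of all (14.7%). With limma these were 115 (8.38%) and 3430 (11.7%), so for this comparison the gained windows did not exceed the share of all windows in either test. The median knockout difference was −0.17 points at gained and 0.27 at all windows.

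Both falls in the knockout started from intermediate levels. A non-coding exon of A930038B10Rik (chromosome 14, 35583001 to 35584000) held 33.6, 40, 37.6 and 33.6% in wild type (MEP, then GMP replicates) and 15.4, 12.3, 8.53 and 17.5% in the knockout, in the same order. The level fell by 22.8 points (quasi-binomial model, adjusted p = 0.0278). At the promoter of Bcar3, an adaptor of cell adhesion signalling (chromosome 3, 122123001 to 122124000), wild type held 27.7, 31.2, 25.9 and 24.7% and the knockout 10.9, 9.41, 12.9 and 17.7%, so that it fell by 14.7 points (adjusted p = 0.0367, same model). The 4 knockout libraries lay below the 4 wild type ones in both windows, and the double mutant above, at 71.7, 81.4 and 64.5% and 44.4, 49.5 and 47.9%. Neither was called with limma (adjusted p = 0.195 and 0.250) or with replicate number added to the model as a block (0.0884 and 0.0786). Nor was either called without any 1 of 10 of the 12 libraries (all but Idh2 mutant GMP replicates 1 and 2).

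In the Idh2 mutant 2.02% of all windows were called higher than wild type and 0.318% lower. Of the gained windows 11 were called higher and 4 lower. Together these are 15, or 1.09%, against 2.34% of all windows called in either direction. The median Idh2 mutant difference was 0.68 points at gained and 0.51 at all windows, and Idh2 mutant means were higher in 65.1% of gained and 68.1% of all windows. Among windows below 20% in wild type MEP, gained ones included, 1.32% were called. The 1.09% is over gained windows of every level, and the share among low gained windows alone was not counted.

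The 5 largest called differences from wild type were 4 falls and 1 rise. The promoter of 1700048O20Rik (chromosome 9, 121847001 to 121848000) held 66.1, 65.2, 74.7 and 42.6% in wild type and 1.98, 11.01, 3.19 and 10.7% in the Idh2 mutant (MEP, then GMP), and so fell by 55.5 points (quasi-binomial model, adjusted p = 0.00770). Double mutant libraries held 92.99, 95.9 and 86.6%, above all others. The A930038B10Rik exon fell by 28.9 points (adjusted p = 0.00419), with 3.39, 2.48, 6.98 and 16.5% in the Idh2 mutant. So in these 2 windows the Idh2 mutant lay under the wild type while the double mutant lay over it.

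A window 127682 bp from Lhx5, a LIM homeobox factor of the brain (chromosome 5, 120754001 to 120755000), held 40.98, 39.2, 48.5 and 42% in wild type and 10.9, 24.6, 13.5 and 17.99% in the Idh2 mutant, and so fell by 25.9 points (quasi-binomial model, adjusted p = 0.0136). The promoter of Lrtm1 fell by 25.1 points from 78.5% ± 5.16 to 53.4% ± 11.2 (SD, n = 4 libraries each, 2 MEP and 2 GMP, adjusted p = 0.0346 in the quasi-binomial model across all windows). The promoter of Pak6, a serine and threonine kinase (chromosome 2, 118503001 to 118504000), held 35.8, 34.5, 43.8 and 37.8% in wild type and 41.7, 57.6, 71.3 and 78.05% in the Idh2 mutant, a rise of 24.2 points (quasi-binomial model, adjusted p = 0.0125). At Pak6 Idh2 mutant MEP replicate 1 overlapped with wild type, and the double mutant held 90.5, 95.3 and 88.5%. With limma the adjusted p was 0.0739 for Lhx5, 0.112 for Lrtm1 and 0.111 for Pak6. The call of Lhx5 also ended without wild type GMP replicate 1 or 2 or Idh2 mutant GMP replicate 1, that of Pak6 without wild type GMP replicate 2 or either Idh2 mutant GMP replicate, and that of Lrtm1 with the replicate block (0.0698) or without any 1 of 10 libraries (all but wild type MEP replicate 1 and Idh2 mutant GMP replicate 2).

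Compared directly, 2.62% of all windows were called higher in the Idh2 mutant than in the knockout and 0.0957% lower. Of the gained windows 17 were called higher and 2 lower, 1.38% in either direction against 2.71% of all windows and 1.72% of those below 20% in wild type MEP. In the model 260 gained windows (18.95%) had an unadjusted p under 0.05, a larger share than the 4845 of all (16.6%). For limma the numbers were 196 (14.3%) and 4239 (14.5%), and it called 4 gained windows. The median difference was 0.95 points at gained and 0.19 at all windows. At a window 54105 bp from Zfp281, a zinc finger factor (chromosome 1, 138467001 to 138468000), the knockout held 14.7, 42.4, 44.4 and 48.5% and the Idh2 mutant 76.3, 74.05, 76.7 and 80.5%, a difference of 39.4 points (quasi-binomial model, adjusted p = 0.0225). Wild type held 68.8, 50.95, 74.04 and 66.7%, so the knockout was the lowest of the 3 genotypes in mean. The promoter of 3110053B16Rik (chromosome 12, 20927001 to 20928000) held 1.86, 0.575, 0.505 and 4.67% in the knockout, 0.602, 0, 0.769 and 0% in wild type and 22.99, 20.1, 22.8 and 22.5% in the Idh2 mutant. The difference of 20.2 points had an adjusted p of 0.00360 (quasi-binomial model), and the double mutant held 61.7, 38.9 and 37.8%. Here the Idh2 mutant alone took an intermediate place between knockout and double mutant. The remaining 3 of the 5 largest were 1700048O20Rik (−47.7 points in the Idh2 mutant relative to the knockout), Lhx5 (−24.6) and Pak6 (28.2), with adjusted p = 0.00953, 0.0110 and 0.00812 in the same model.

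Of these, Zfp281 was not called with the replicate block (adjusted p = 0.0767) or without any 1 of 7 libraries (both knockout GMP, wild type GMP replicate 1 and all 4 Idh2 mutant libraries). With limma, Pak6 (0.0553) and Lhx5 (0.0620) were not called. Lhx5 was also lost without knockout MEP replicate 1 or Idh2 mutant GMP replicate 1, and 1700048O20Rik without knockout GMP replicate 1 or Idh2 mutant GMP replicate 1. The call of 3110053B16Rik held under all 15 alternatives that kept the same windows and the same required difference. With a required difference of 25 points it was not called, since its difference was 20.2 points.

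Between MEP and GMP 0.219% of all windows were called, 0.164% higher and 0.0547% lower in MEP, and 0 of the gained ones with the quasi-binomial model or limma. In the model 67 gained windows (4.88%) had an unadjusted p under 0.05, against 1906 of all (6.52%). With limma these were 55 (4.01%) and 1767 (6.04%). The median MEP minus GMP difference was −0.43 points at gained and −0.27 at all windows.

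Part of the gained windows lay in repeated sequence. Windows that share at least 200 words of 31 bases with another window over 10 kb away numbered 1759 (6.01%), and 103 of the 1372 (7.51%) were among them. Reads from such copies can be placed on the wrong one, so levels of single copies are uncertain. Chromosome 12 had the highest share of gained windows, 9.24% (122 of 1320), against 2.45 to 6.11% on the other autosomes, and 7.28% (85 of 1167) without copies. Between 18 and 25 Mb of it 44 of 98 windows were gained, 37 of them copies.

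The largest family had 31 windows (chromosome 12, 17889001 to 24937000), 25 of them gained. One copy, at the predicted gene Gm17330 (measured part, mm9 plus strand, CpGs measured in all libraries in capitals), is printed because its relatives carry much of the excess.
chromosome 12 copy (chr12:24654058-24654107): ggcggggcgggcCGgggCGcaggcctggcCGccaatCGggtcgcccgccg

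The best ungapped match of these 50 bases in the other 30 windows and their flanks had a median identity of 89%, from 74 to 100%, and 3 were identical. Over the whole family the double mutant libraries had 67.05, 74.1 and 69.7%, wild type MEP 32.6 and 32.3%, knockout MEP 27.4 and 30.04% and Idh2 mutant MEP 32.8 and 36.6%. Gained families on chromosome 4 started lower. One of 12 windows with 10 gained, at Ccl27a and its relatives (41720001 to 42749000), had 20.3, 23.2 and 20.8% in the double mutant and 2.04% on average in wild type MEP. Another of 7 windows, all gained, at Rex2 and neighbouring predicted genes (145364001 to 146818000), had 44.7, 51.1 and 46.9% and 14.1%. Without any copies 1269 windows remained gained, with medians of 35.6, 41.4 and 36.4% in the double mutant and 3.42 to 5.78% in the other libraries.

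CpGs that the rule had not used give a further reading of the same libraries. In 1229 of the windows, 14957 CpGs had under 10 reads in at least 1 library, though 30 or more in all, and so stayed out of the levels. Pooled over these, methylation was 33.7, 39.1 and 34.4% in the double mutant and 7.23 to 10.9% in the other libraries. Of 929 windows with at least 10 such reads in every library, the lowest double mutant library exceeded all 12 others in 703 (75.7%), and by 10 points or more in 457 (49.2%). Among 12313 windows that were not gained, these shares were 8.75 and 2.23%. The unused CpGs neighbour the used ones on the same or adjoining fragments and come from the same cells, so they are no independent samples.

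Of the 10436 CpGs that set the levels, 8721 (83.6%) were 10 or more points higher in the double mutant mean than in wild type MEP, and 237 were equal or lower. Every used CpG gained 10 points in 594 windows (43.3%). The range of gains among the CpGs of a window had a median of 48.4 points. Gains within a window were therefore uneven in most of them.

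The threshold fell in a continuous range of margins. Just inside were the Hoxb9 promoter, with a lowest double mutant library of 11.8% and a highest other library of 1.78%, an intergenic window near 2310007B03Rik (18.3 and 8.24%) and the promoter of AC113316.1 (40.1 and 30.1%). Just outside were the promoters of Klhl32 (14.95 and 4.96%), Zfp423 (16.2 and 6.25%) and Plek (13.4 and 3.47%). A further 681 windows had a margin of 5 to 10 points.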

How the data were processed

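The authors deposited 1 table of CpG cytosines per library, with counts of methylated reads and of all reads and a methylation fraction (BSMAP methratio layout, per the file columns). Alignment used BSMAP 2.74 and build mm9, per the submitters' processing notes. How duplicates and conversion were handled is not given in the sources used here. The deposited fraction was only checked against the counts. Counts of both strands were added, CpGs with 10 or more reads in all 15 libraries were grouped into 1 kb windows (241527 CpGs, 29251 windows, median depth 30 to 51 reads), and windows were placed with gencode vM1 (promoter: within 1 kb of a start site). Counts of the 12 libraries without the double mutant were fitted with a quasi-binomial logistic model with 6 group means, 6 residual degrees of freedom and dispersions squeezed (prior 2.69) and kept at 1 or more; F tests were Benjamini-Hochberg adjusted. Data for knockout against wild type were simulated over 29251 windows without group differences, except rises planted in the knockout. Windows of high overall level received none, and falls were not simulated. Of the rises, 89 of 100 by 20 points and 91 of 100 by 30 points were found, with 5 false calls of 185.

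Named windows were the 20 of largest margin, up to 4 per gene list, up to 5 called per comparison, and 3 on each side of the threshold; 1 of them is not reported here. Members, lists and tests were chosen with earlier results of these data known. PCR copies cannot be told from separate molecules. Software was limma 3.58.1 in R 4.3.3, and scipy 1.17.1, numpy 2.4.6, pysam 0.24.0, pandas 2.3.3 and matplotlib 3.10.9 in Python 3.11.15.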

Additional observations from a re-analysis of the deposited data

How the results depend on the processing

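The number of gained windows became 682 at 20 reads per CpG (14158 windows measured), 589 with a margin of 20 points and 376 with 25; it was 1375 to 1671 without single libraries, which can only relax the rule, and 1269 without near-identical windows, a setting added after the data were seen. Other window sizes, CpG minimums, weights and the MEP libraries alone stayed within 1.5 times. Called windows of all 29251 varied more. Knockout against wild type (201) gave 80 at 20 reads, 363 with all 15 libraries in the fit, 67 at 25 points, 2 with limma and 4 to 192 without single libraries (4, 5, 6, 9, 10 and 10 without wild type GMP replicates 2 and 1, knockout MEP replicate 1, knockout GMP replicates 2 and 1 and wild type MEP replicate 2). Idh2 mutant against wild type (685) gave 328 at 20 reads, 239 at 25 points, 146 with limma and 187 to 629 without single libraries (187 without Idh2 mutant GMP replicate 1, 229 to 386 without 1 wild type library, 265 and 379 without Idh2 mutant MEP and GMP replicate 2). Idh2 mutant against knockout (794) gave 389, 345, 333 and 289 to 830 in the same order (lowest without knockout GMP replicate 1, highest without knockout MEP replicate 2). MEP against GMP (64) gave 28 at 20 reads, 37 in 500 bp windows, 35 at 25 points, 12 with limma and 9 to 36 without single libraries (9 without knockout GMP replicate 1). The lone library left in a group was assumed to vary like the other groups. Among gained windows, calls without single libraries were 0 to 4 for knockout against wild type, 5 to 16 for Idh2 mutant against wild type, 6 to 20 for Idh2 mutant against knockout and 0 for MEP against GMP. The cause of these changes was not tested.

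A replicate block was also added to the model. In the comparisons of genotypes it was the replicate number, shared by all genotypes and by GMP and MEP. For MEP against GMP it was the title prefix, tying the GMP and MEP libraries of a prefix. The counts were then 6, 385, 463 and 0, and among gained windows 0, 11, 9 and 0. Deviations of libraries of 1 prefix correlated at −0.040 in the knockout, 0.361 in wild type and 0.510 in the Idh2 mutant, so the pairing was not shown for all genotypes. The comparisons of genotypes counted the GMP and MEP libraries of a prefix as separate samples, also with the replicate number as block. Where such libraries vary together, their p-values are too small. Depth limits levels near 0 and 100%, and PCR copies make the true depth smaller than the read count.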

Other observations

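The base after the CpG made little difference at the gained windows, where double mutant means by following base were 40.1% for A, 36.9% for C, 42.0% for G and 42.5% for T (n = 3 libraries). In windows below 20% in wild type MEP that were not gained, they were 4.10, 2.99, 5.01 and 3.14%, against 2.09, 1.84, 2.55 and 1.76% in wild type MEP. On the plus strand the double mutant libraries had 38.2, 43.0 and 39.1% at the gained windows and on the minus strand 39.3, 44.1 and 40.2%.

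Among windows below 20% in wild type MEP, a match to the ETS core CCGGAA on either strand was found in 35.2% of gained windows and in 44.2% of all, one to the E-box CACGTG in 14.5 and 19.3%, and one to a GATA site (AGATAA or TGATAA) in 32.1 and 34.9%. Motif letters on either strand were searched in the 1 kb windows, and a match is a description only.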
